A study of Homo sapiens with 34 samples.

Results

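The 10 genes described here belong to the S100 family of calcium-binding proteins and were taken from the expression table by name: S100A4, S100A6, S100A8, S100A9, S100A10, S100A11, S100A12, S100A13, S100A16 and S100P. The table held 20255 genes, 16 of which were S100 genes, and all 10 members were measured and tested. RNA was sequenced from H1, an established line of human embryonic stem cells, as it formed blood cells on a planar culture to which no haematopoietic cytokine was added. The 34 samples came from 12 populations, each with 3 independent biological replicates, except for undifferentiated H1 cells with 1 sample and no treatment. Embryoid bodies (EBs, small aggregates of cells) at day 0 were labelled as treated with BMP4 and hVEGF, and all later populations with hVEGF. Cells of days 2 and 4 were unsorted. From day 6 on they were sorted for CD43, a sialoglycoprotein carried by leukocytes and their early precursors, into CD43- and CD43+ fractions on days 6, 9 and 12. On day 16 the fractions were CD43-CD45- and CD43+/CD45+, named below by their CD43 state alone. In every comparison of day 16 with day 12 the day and the sort changed together, and their parts cannot be told apart. All samples came from 1 cell line.

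S100 proteins are small proteins that bind calcium through EF-hand motifs and mostly work as dimers. S100A8 and S100A9 pair as calprotectin, a main cytosolic protein of neutrophils and monocytes that is also released and acts on the receptors TLR4 and RAGE. S100A12 is likewise a product of granulocytes and monocytes. S100A10 binds annexin A2 at membranes, S100A11 binds annexin A1, and S100A4 binds non-muscle myosin and is found in motile cells.

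The deposited values are tag counts that the authors normalized for GC content, rounded to whole numbers, and they carry no unit of length, so levels of different genes are not compared. Sorted by size, the values were the same in all 34 samples, with a sum of 17856940 and a highest value of 90700. A value thus came close to a rank within genes of like GC content, and read depth is unknown. In day 12 CD43+ cells S100A8 stood at rank 10 of the 2015 genes in its GC bin in all 3 samples, and its value was 15794 in each. S100A9 stood at ranks 3, 4 and 2 of its GC bin in the same samples. Differences among such abundant genes are compressed. A gene was called when limma, fitted to log2(value + 1), gave both a fold change over 4 and an adjusted p-value (Benjamini-Hochberg) under 0.05. SPN, the gene of CD43, followed the sort. On day 12 its values were 122, 120 and 235 in CD43- cells and 4458, 7132 and 6791 in CD43+ cells.

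Of the 10 genes, 9 lie on chromosome 1 of GRCh38, from S100A10 (151982915 to 151994390) and S100A11 (152032506 to 152047907) through S100A9 (153357854 to 153361027), S100A12 (153373706 to 153375649) and S100A8 (153390032 to 153391188) to S100A6, S100A4, S100A16 and S100A13 (153618787 to 153631360). S100P lies alone on chromosome 4 (6693069 to 6697170). S100A9 is on the plus strand and its neighbours S100A12 and S100A8 on the minus strand. The annotated spans of S100A4 and S100A3 share 2044 bases on the same strand. Those of S100A13 and S100A1 share 3435 bases on opposite strands, and those of S100A11 and AL591893.1 share 10269. S100A13 also shares 5029 with RP1-178F15.5 on the same strand. These are spans of whole genes. The use of strand in the counting is not given in the sources used here, and how reads in the shared parts were assigned was not tested.

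The stretch just before the transcription start is shown for the 4 myeloid members, for S100A4, which was also higher in CD43+ cells, and for S100A10, which was lower there. Each is read 5′ to 3′ on the strand of its gene from base -32 to base -3 before a RefSeq start (GRCh38.p14), and the letters TATAAA, where present, are in capitals.

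S100A9: gccTATAAAtgccgagcctgcacagctctg

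S100A8: cgcTATAAAaaggagctgcctctcagccct

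S100A12: ggctaagatgaagcctgaactgatTATAAA

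S100P: gcctTATAAAgcaccaagaggctgccagtg

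S100A4: gTATAAAtaggtcagacctctgggccgtcc

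S100A10: aggctcctcccgctcccgcgccgcctccct

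These stretches lie at chr1:153357822-153357851 (S100A9, plus strand), chr1:153391076-153391105 (S100A8, minus), chr1:153375624-153375653 (S100A12, minus), chr4:6693846-6693875 (S100P, plus), chr1:153545809-153545838 (S100A4, minus) and chr1:151993862-151993891 (S100A10, minus). TATAAA began 29 bases before the start shown of S100A9 and S100A8 (-29), at -28 in S100P and at -31 in S100A4. Of the 3 start windows of S100A8, the 1 shown was picked because it held TATAAA within 40 bases before its start. In S100A12 it began at -8. The 10 members had 15 RefSeq start windows, since S100A8 and S100A13 had 3 each and S100A16 had 2. TATAAA lay on the gene strand within 40 bases before the start in 6 of these 15 windows, 1 each for S100A4, S100A8, S100A9, S100A12, S100A13 and S100P, and in 2.44% of all 35116 windows. That narrow window was chosen after the sequences were seen. Within 300 bases (250 before and 50 after the start, both strands), TATAAA was found in 7 of the 15 member windows and in 11.5% of all windows. In S100A8 the same site was counted in overlapping windows, at -29 and at -126 from their starts. The C/EBP letters TTGCNNAA were found in 10.5% of all windows, and among the members in S100A12 and S100A11 alone. The PU.1 letters GAGGAAGT were found in 2.59% of all windows and in no window of a member. A match describes the letters only.

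S100A9 codes for the larger subunit of calprotectin. It was 48, 12 and 10 in day 6 CD43+ cells, 332, 398 and 560 on day 9, 37130, 28960 and 47984 on day 12, and 22758, 18714 and 47984 on day 16. In bulk RNA, fewer cells of a type and less RNA per cell cannot be told apart. CD43- cells held 1, 0 and 2 on day 6, 2, 2 and 6 on day 9, 38, 380 and 845 on day 12, and 219, 498 and 384 on day 16. Up to day 4 no sample exceeded 7. On no day did the sorts overlap, and the CD43+ samples of days 12 and 16 stood far above all others. The log2 fold change of CD43+ against CD43- cells was 3.40 ± 0.73 (standard error, n = 3 against 3) on day 6 (limma, adjusted p = 0.000324), then 6.72, 7.32 and 6.29 on days 9, 12 and 16 (adjusted p = 1.86e-08 on the last day). On day 6 both values were low, and with a pseudocount of 10 S100A9 was not called (1.42, adjusted p = 0.0438).

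S100P, a family member outside the chromosome 1 cluster that is found in placenta and in some blood cells, followed a similar course at its own level. In CD43+ cells it was 18, 24 and 10 on day 6, 68, 96 and 70 on day 9, 1075, 1514 and 1602 on day 12, and 691, 523 and 782 on day 16. In CD43- cells no sample of any day exceeded 32. The groups did not overlap on any day. Its log2 fold change was 2.48 ± 0.50 (SE, limma, adjusted p = 0.000156) on day 6, which was 1.12 and not called with a pseudocount of 10, then 4.98, 6.05 and 5.59 on days 9, 12 and 16 (adjusted p = 1.46e-10 on the last day).

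S100A8, the smaller calprotectin subunit, appeared later in the table than S100A9. It is listed at 0 in every sample up to and including day 6, in both sorted populations of that day, and in day 9 CD43- cells. Day 9 CD43+ cells held 48, 70 and 101. On day 12 all CD43+ samples held 15794, and on day 16 they held 7746, 6220 and 15794, against 0, 19 and 200 and then 32, 182 and 122 in CD43- cells. The sorted groups did not overlap from day 9 on. For day 9 no fold is given, since CD43- cells are listed at 0 (limma, adjusted p = 2.83e-06). The log2 fold change was 9.96 ± 0.95 (SE) on day 12 (adjusted p = 5.58e-10) and 6.66 on day 16 (adjusted p = 7.14e-07).

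S100A12 came last. It is listed at 0 in every sample up to day 6 and in day 9 CD43- cells. CD43+ cells held 0, 0 and 2 on day 9, 2220, 1362 and 1293 on day 12 and 1600, 943 and 6256 on day 16. Its values in CD43- cells were 0, 0 and 6 on day 12 and 14, 24 and 28 on day 16, far below the CD43+ samples. The difference was 9.69 ± 0.59 (SE, limma, adjusted p = 6.86e-14) on the log2 scale on day 12 and 6.58 on day 16 (adjusted p = 1.7e-10). Since CD43- cells of day 12 were at or near 0, the size on that day rests on the pseudocount, and so does that of S100A8, which had 1 sample at 0. On day 16, replicate 3 of the CD43+ cells stood above the other two in S100A12, S100A8 and S100A9 alike. Of the lists of markers of 5 groups of blood cells, that of monocytes and macrophages was also highest in replicate 3 by summed value. The sums of the others were not. In the 3 samples in turn, the neutrophil-lineage markers summed to 177682, 142195 and 170254. Those of monocytes and macrophages summed to 61842, 57745 and 71446, and those of mast cells and eosinophils to 104814, 45655 and 65555. PRG2 (90700, 37190 and 48061) made the largest part of that last sum. In the same list CLC (3205, 1934 and 6244), TPSAB1 (276, 214 and 380) and CPA3 (236, 196 and 473) were highest in replicate 3. EPX was 10397, 6121 and 10397. The erythroid markers (8365, 9571 and 4264) and megakaryocyte markers (48863, 73346 and 20535) were lowest in replicate 3. Single genes went both ways, with FCGR3B (1764, 1035 and 3484) and FCN1 (5292, 4136 and 9860) highest in replicate 3 and CSF1R lowest (25862, 25862 and 22836). The part of these genes in the S100 values was not tested.

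In CD43+ cells these 4 genes rose between day 9 and day 12. S100A12 rose by 10.09 on the log2 scale, S100A8 by 7.80, S100A9 by 6.47 and S100P by 4.14 (limma, highest adjusted p = 1.2e-07), where S100A12 started at or near 0. Together with S100A11 they made 5 of 10 members called, where 15% of all 19788 genes tested were called. From day 6 to day 9, S100A9 rose by 4.46, S100P by 2.17 and S100A8 from 0 (by 6.15, or by 9.45 with a pseudocount of 0.1, so that its rise cannot be ranked against that of the next step), S100A16 fell by 2.73, and 4 of 10 members were called against 7.53% of all genes. The rise of S100P was 1.84 and not called without replicate 3 of the day 6 CD43+ cells, nor with a pseudocount of 10 (1.71). From day 12 to day 16 no member was called by limma, against 9.05% of all genes. Unadjusted p-values were below 0.05 for 3 members (S100A4, S100A16 and S100P), and only that of S100A4 remained so after adjustment, against 42.4% of all genes (log2 fold change -0.85, adjusted p = 0.000324). The log2 changes of S100A8 (-0.79, interval -2.74 to 1.16) and S100A9 (-0.45, interval -1.93 to 1.04) over that step had wide 95% intervals.

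The other 6 members had been listed as stromal, and S100A4 went against that name: it was higher in CD43+ cells on all 4 days. In CD43+ cells it was 4899, 4035 and 4114 on day 6, 6248, 6068 and 5703 on day 9, 5193, 5556 and 6140 on day 12, and 2690, 3084 and 3652 on day 16. In CD43- cells it lay between 408 and 917 in all 12 samples, so that no sample of one sort overlapped the other. Between the sorts it differed by a log2 fold change of 2.41 ± 0.17 (SE, limma, adjusted p = 1.71e-11) on day 6, then 3.62, 3.31 and 2.86 on days 9, 12 and 16 (adjusted p = 7.86e-14 on the last day). In the order of its levels, day 9 (6006 ± 278, SD, n = 3) and day 12 CD43+ cells (5630 ± 478) overlapped at the top, above day 6 (4349 ± 478) and day 16 CD43+ cells (3142 ± 484) and day 4 (1235 ± 94.6).

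S100A6, a widely expressed family member, differed little between the sorts. On day 6 it was 1176, 1042 and 1005 in CD43- and 1312, 1252 and 1241 in CD43+ cells, and on day 9 it was 1060, 1241 and 1179 in CD43- and 1105, 1160 and 1060 in CD43+ cells. CD43+ cells differed by 0.24 on the log2 scale (95% interval -0.07 to 0.56) on day 6 and -0.06 (-0.38 to 0.25) on day 9. It reached 1972, 2242 and 2039 in day 12 CD43+ cells, against 1244, 1572 and 1570 in CD43- cells, and was 0.52 higher on day 12 and 0.73 higher on day 16 on the log2 scale (limma, adjusted p = 0.00409 and 0.000156).

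S100A11, the annexin A1 partner, turned its direction. In CD43+ cells it was 1116, 1030 and 1390 on day 6 and 722, 896 and 799 on day 9, below the CD43- cells with 3484, 3372 and 2994 and then 2675, 2717 and 3242. On day 12 the CD43+ samples held 3981, 4238 and 3890 and on day 16 they held 4473, 3816 and 6693, above the CD43- cells with 2756, 2054 and 2448 and then 2297, 2134 and 2310. The groups did not overlap on any of the 4 days, and their order on days 12 and 16 was opposite to that on days 6 and 9. CD43+ against CD43- cells gave a log2 fold change of -1.49 ± 0.14 (SE) on day 6, then -1.84, 0.75 and 1.11 on days 9, 12 and 16 (limma, highest adjusted p = 5.02e-05). From day 9 to day 12 the difference moved by 2.58 ± 0.20 (SE, limma interaction term, adjusted p = 7.01e-10), while S100A11 rose by 2.33 within CD43+ cells and moved by -0.26 within CD43- cells (95% interval -0.55 to 0.04). The direction on each of the 4 days was the same under all alternatives tried.

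S100A10 was lower in CD43+ cells on every day. It was 983, 1022 and 1224 in CD43+ cells of day 6, 600, 887 and 645 on day 9, 1301, 1758 and 1682 on day 12, and 1370, 1374 and 1936 on day 16. The 12 CD43- samples ranged from 2077 (replicate 1 of day 9) to 5642 (replicate 2 of day 12), above every CD43+ sample. On the log2 scale the difference between the sorts was -1.67 ± 0.22 (SE) on day 6. It was -1.995, -1.52 and -1.59 on days 9, 12 and 16 (limma, highest adjusted p of the 4 days 7.18e-07). All were under the 4-fold threshold, that of day 9 only just. Without replicate 1 or 3 of the day 9 CD43- cells or replicate 2 of the day 9 CD43+ cells the day 9 value passed it (-2.21, -2.06 and -2.17).

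S100A13 and S100A16 were also lower in CD43+ cells. S100A13, a binding partner of FGF1, was 658, 692 and 674 in CD43+ and 1110, 1252 and 1505 in CD43- cells on day 6. The log2 difference was -0.92 on that day, then -1.31, -1.12 and -0.70 on days 9, 12 and 16 (limma, highest adjusted p = 2.88e-05). S100A16, the second of these, went in CD43+ cells from 714, 580 and 644 on day 6 to 84, 103 and 102 on day 9, 24, 25 and 40 on day 12 and 57, 26 and 56 on day 16. The CD43- cells held 1551, 1213 and 670 on day 6, which overlapped the CD43+ cells, and 688 to 1289 in the 9 later samples, which did not. Its log2 fold change went from -0.75 (limma, adjusted p = 0.0167) on day 6 to -3.06, -4.91 and -4.71 on days 9, 12 and 16 (adjusted p = 7.53e-15 on the last day).

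Counted over the family, 3 of 10 members were called on day 6 (S100A4, S100A9 and S100P), where 12.5% of all genes were called. On day 9 there were 5 of 10 (with S100A8 and S100A16) against 21.5% of all genes. On days 12 and 16 there were 6 of 10 (with S100A12), against 26.2% and 25.8%. By adjusted p-value alone, 3 members were higher and 4 lower on day 6 (50.3% of all genes passed), 4 higher and 4 lower on day 9 (65.7%), and 7 higher and 3 lower on both day 12 (68%) and day 16 (67.4%). The median of all genes was 0.14 to 0.24 higher in CD43+ cells on the log2 scale. Under median-of-ratios scaling that median moved by over 0.1 on days 6 and 9, from 0.14 to 0.00 and from 0.24 to 0.04 (and in the step of CD43+ cells from day 9 to 12 from -0.15 to 0.00), and no member changed direction on any day.

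**Figure D1:**
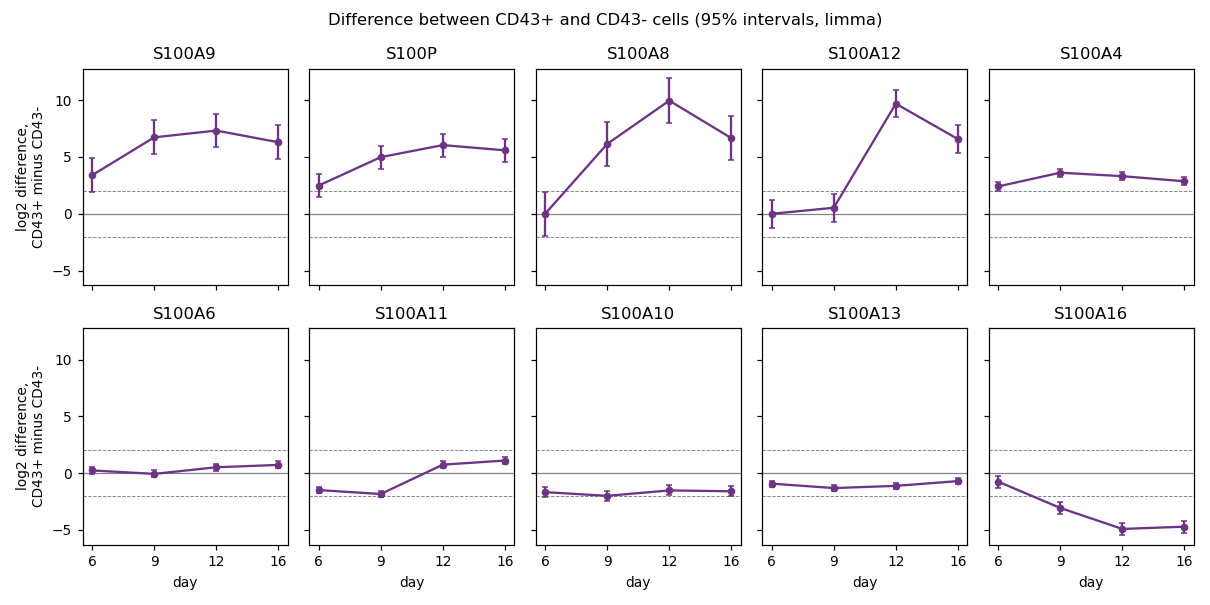
Log2 difference between CD43+ and CD43- cells on days 6, 9, 12 and 16 for each of the 10 genes, with 95% intervals from limma (3 samples against 3); dashed lines mark a 4-fold difference, and where a sort is listed at 0 the difference rests on the pseudocount. S100A16 fell to -4.91 on day 12, S100A11 crossed 0 between days 9 and 12, and the 4 myeloid members reached 6.05 to 9.96 on day 12.

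Averaged over log2(value + 1), the 4 myeloid members went from 2.09 ± 0.37 (SD, n = 3) in day 6 CD43+ cells to 5.42 ± 0.43 on day 9, 12.55 ± 0.10 on day 12 and 12.08 ± 0.77 on day 16. In CD43- cells they were 0.62 ± 0.04, 0.82 ± 0.44, 4.29 ± 1.82 and 5.80 ± 0.72 on the same days. The other 6 members lay between 9.45 and 10.59 in all 8 sorted populations.

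Before the sort, the 6 other members moved with the days. From day 0 to day 2 no member was called by limma, where 7.88% of all genes were, but S100A10 (-1.57), S100A16 (-1.39), S100A4 (-1.23), S100A6 (-0.69) and S100A13 (-0.51) had lower log2 values and S100A11 a higher one (0.73), all 6 with both unadjusted and adjusted p-values below 0.05, where 36.4% of all genes passed the adjusted one. From day 2 to day 4 all 6 rose by adjusted p-value, which 36.1% of all genes passed. S100A4 went from 116, 86 and 117 to 1296, 1126 and 1283 and was called with S100A10 (590, 570 and 635, then 4786, 4430 and 5040) and S100A6, against 9.5% of all genes. Their log2 fold changes were 3.54 ± 0.17, 2.99 ± 0.22 and 2.03 ± 0.15 (SE, limma, highest adjusted p = 3.93e-11). S100A6 was near the threshold and was not called without replicate 2 or 3 of day 2 or replicate 1 of day 4 (1.88, 1.92 and 1.997). S100A11 rose by 1.26, S100A13 by 1.32 and S100A16 by 1.19.

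Compared with day 4, the day 6 populations had parted. In CD43+ cells 4 of 10 members were called, against 14.5% of all genes: S100A10 (-2.15) and S100A11 (-2.18) were lower on the log2 scale, and S100A9 and S100P were higher by 2.62 and 3.12 at low values. S100A9 was not called without replicate 1 of the day 6 CD43+ cells (1.94). With a pseudocount of 10 neither S100A9 (1.26) nor S100P (1.28) was called. S100A4 was 1.81 higher (limma, adjusted p = 2.89e-09), under the fold threshold. In CD43- cells no member was called by limma, against 7.71% of all genes, and 6 had an unadjusted p-value below 0.05. Of these, S100A16 (1.36), S100A13 (0.68) and S100A6 (0.61) were higher and S100A11 (-0.69) and S100A4 (-0.59) lower also by adjusted p-value (45% of all genes passed), and S100A10 was not (-0.48, adjusted p = 0.0756). In the unreplicated undifferentiated cells S100A11 was 1120, S100A10 845, S100A13 506, S100A16 356, S100A6 291 and S100A4 230, S100A9 was 1, and S100A8, S100A12 and S100P are listed at 0.

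CD43- cells also gained myeloid S100 genes. Between days 6 and 9 no member was called by limma, against 1.75% of all genes, and 2 had a p-value below 0.05, unadjusted and adjusted, where 6.65% of all genes passed the latter (S100A4 at -0.74 and S100A13 at -0.67). Between days 9 and 12, S100A8, S100A9 and S100P were called, 3 of 10 members against 7.33% of all genes, with log2 fold changes of 5.87 ± 0.73 for S100A9 (SE, limma, adjusted p = 9.6e-07) and 3.08 ± 0.50 for S100P (adjusted p = 2.97e-05), and an adjusted p of 0.0018 for S100A8, which started from 0. The 3 day 12 samples differed widely, and replicate 1 overlapped day 9 in S100A8. It held 0 of S100A8 and 38 of S100A9, replicate 2 held 19 and 380, and replicate 3 held 200 and 845. S100P did not share that order, at 32, 10 and 24.

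Replicates 2 and 3 of day 12 CD43- cells also stood above replicate 1 in transcripts of blood cells. PTPRC, the gene of CD45, was 4, 197 and 371, CSF1R 71, 1379 and 2314, CD163 32, 936 and 838, and C1QA 12, 410 and 502. Over the 8 monocyte and macrophage markers the summed value was 286, 4449 and 5664, with 1 of the 8 listed at 0 in each sample. The gene with the largest value in that sum, which is not a level per length, was MRC1 in replicate 1 (138) and CSF1R in replicates 2 and 3. Over the 11 neutrophil-lineage markers it was 416, 1141 and 7091, with 6, 4 and 3 at 0. CSF3R made the largest part of that sum in replicates 1 and 2 (334 and 675) and MPO in replicate 3 (4608). Their part in the S100 values was not tested. With only replicate 1 left for day 12, which is then assumed to vary like the other samples, S100A8 was at 0 on both days, S100A9 was 3.29 and S100P 3.74 higher than on day 9 (limma, adjusted p = 0.00294 and 0.000354). In a fit of only the populations compared, S100A8 (limma, adjusted p = 0.209) and S100P (adjusted p = 0.0568) were not called. With a replicate block in that fit S100A9 was not called either (limma, adjusted p = 0.0617). A pseudocount of 10 also ended the calls of S100A8 and S100P. The day 12 difference between the sorts kept its 6 called members without replicates 2 and 3 of CD43- cells, an alternative chosen after the values were seen, and that of S100A8 and S100A9 was then larger (13.95, against a sample at 0, and 9.90).

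In day 16 CD43- cells, S100A8 (32, 182 and 122) and S100A12 (14, 24 and 28) were called higher than on day 12, which made 2 of 10 members against 10.4% of all genes. The day 16 cells were sorted as CD43-CD45- and those of day 12 by CD43 alone, so day and sort cannot be told apart here. S100A12 differed by 3.53 ± 0.59 on the log2 scale (SE, limma, adjusted p = 2.45e-05). With a pseudocount of 10 its difference was 1.43, and neither gene was called. For S100A8 the difference was 2.51 ± 0.95 (adjusted p = 0.033), with samples that overlapped those of day 12, and it was 0.51 without replicate 1 of the day 12 cells, and 2.002 and 2.29 and not called without replicate 2 or 3 of the day 16 cells. Other blood cell transcripts stood beside them. MPO was 4657, 12840 and 8970, PRTN3 760, 4152 and 1824, PF4 of megakaryocytes 1062, 3224 and 1582, and PRG2 of eosinophils 765, 3658 and 1674, each highest in replicate 2, as were S100A8 and S100A9. The globin genes HBE1 (836, 1090 and 1819) and HBZ (632, 416 and 1448) were highest in replicate 3. Against day 12, 6 of the 10 neutrophil-lineage markers tested were called higher, 4 of 5 of mast cells and eosinophils, 4 of 4 of megakaryocytes and 4 of 5 of erythroid cells. Of the 8 monocyte and macrophage markers, 4 were called lower, among them C1QA (8, 2 and 6) and CD163 (19, 26 and 19), and 2 were higher by adjusted p-value alone. FCN1 was 22, 44 and 60, against 6, 6 and 48 on day 12, and MRC1 was 466, 658 and 682. PTPRC was 18, 42 and 22. Summed over the 11 neutrophil-lineage markers the value was 6862, 21325 and 13285, and over the 4 megakaryocyte markers 3870, 11735 and 5925. Over the 5 mast cell and eosinophil markers it was 905, 4298 and 2051, and over the 5 erythroid markers 1505, 1559 and 3352. Their part was not tested.

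**Figure D2:**
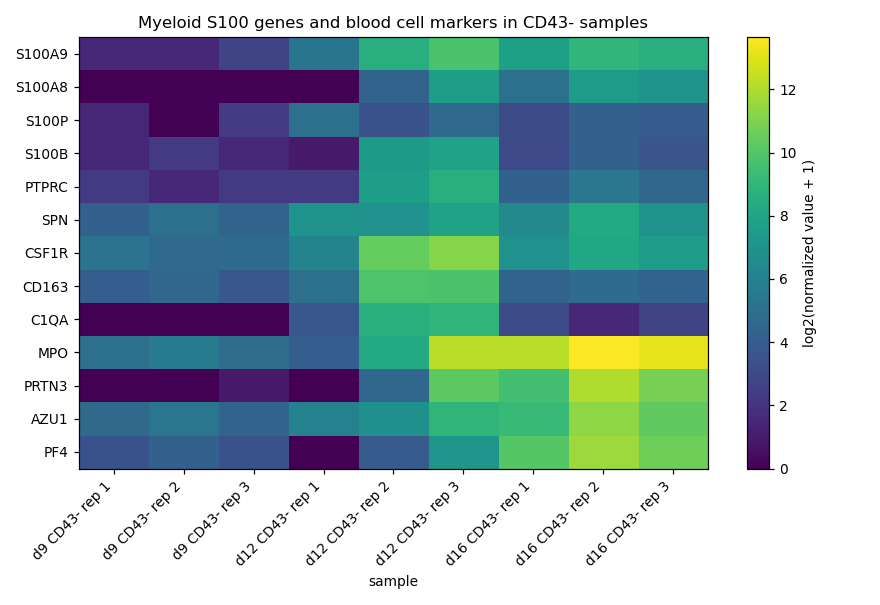
Log2(normalized value + 1), as colour, of 4 S100 genes and 9 blood cell markers in the 9 CD43- samples of days 9, 12 and 16. Replicates 2 and 3 of day 12 held S100A9 with PTPRC, CSF1R, CD163 and C1QA, and the day 16 samples held S100A9 with MPO, PRTN3 and PF4 and little C1QA or CD163.

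The receptors and partners of the S100 proteins were followed as a list of 22 genes, all tested. Between the sorts, 2 of them were called higher in CD43+ cells and 3 lower on day 6. The counts were 2 and 5 on day 9, 7 and 3 on day 12, and 6 and 3 on day 16, where 12.5%, 21.5%, 26.2% and 25.8% of all genes were called in either direction on the 4 days. ANXA2, whose protein binds S100A10, was lower in CD43+ cells, as S100A10 was. On day 9 the CD43+ samples held 492, 773 and 704 against 13314, 13314 and 14002 in CD43- cells. Its log2 fold change was -4.39 there (limma, adjusted p = 1.54e-16), and on days 12 and 16 it was -1.01 and -1.08. AHNAK, a large scaffold protein bound by the complex of S100A10 and annexin A2, had log2 fold changes of -2.13, -4.86, -2.74 and -3.95 on the 4 days. It reached 90700, the top of the scale, in 9 of the 12 CD43- samples, so these differences are compressed.

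ANXA1, whose protein binds S100A11, turned with S100A11. In CD43- cells of day 9 it was 6010, 5485 and 6920 against 2060, 4244 and 1526 in CD43+ cells, and on day 12 it was 8083, 7492 and 10084 against 37186, 48056 and 48056. CD43+ against CD43- cells, ANXA1 had a log2 fold change of -0.71 on day 6 (limma, adjusted p = 0.0624), then -1.36, 2.38 and 2.24 on days 9, 12 and 16 (adjusted p = 5.38e-07 on the last day). ANXA6 was -2.89 on day 9 and did not pass the test on day 12 (-0.22, adjusted p = 0.146).

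**Figure D3:**
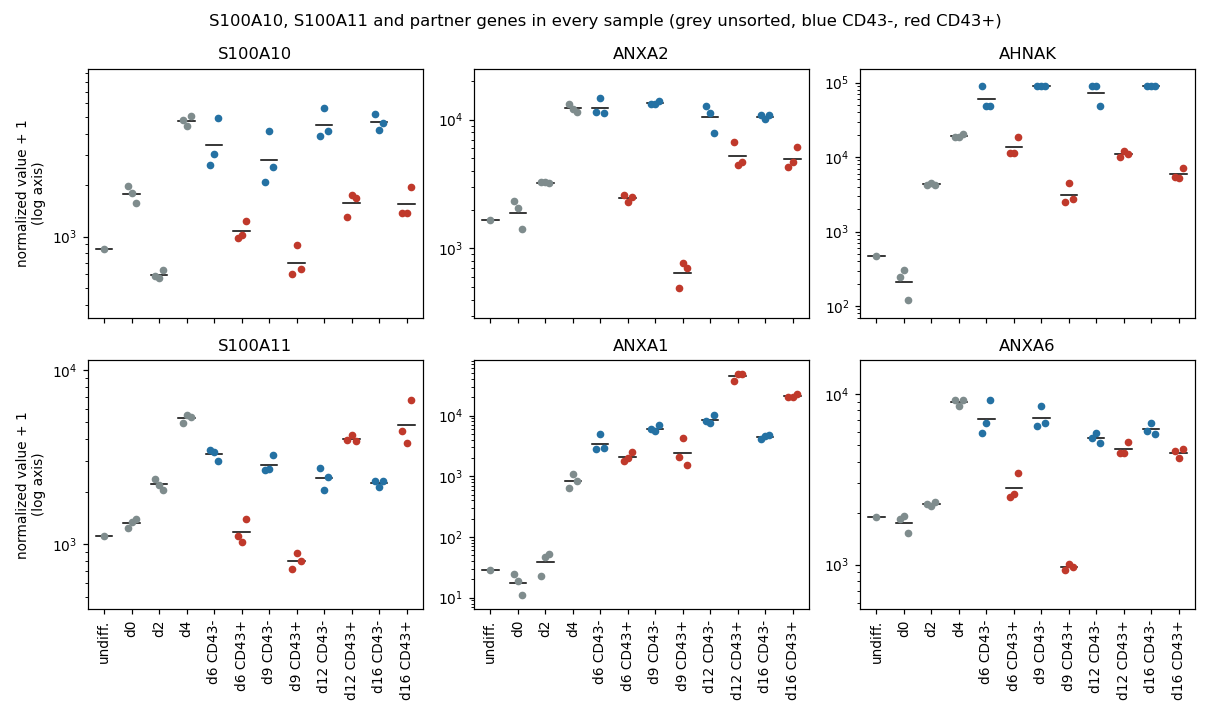
Normalized value + 1 (log axis) of S100A10 with ANXA2 and AHNAK (top) and of S100A11 with ANXA1 and ANXA6 (bottom) in each of the 34 samples, by population; points are samples, bars are means on the log scale, grey is unsorted, blue CD43- and red CD43+. ANXA2 was lowest in day 9 CD43+ cells at 492 to 773, and ANXA1 stood lower in CD43+ cells on day 9 and higher on days 12 and 16.

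Among the receptors for calprotectin, the TLR4 complex rose in CD43+ cells between days 9 and 12. TLR4 was 126, 144 and 140 in CD43+ cells of day 9 and 3380, 1478 and 1686 on day 12, LY96 was 6, 2 and 0 and then 230, 104 and 88, and CD14 was 1, 8 and 17 and then 3183, 1304 and 754. These were log2 rises of 3.89, 5.55 and 7.74, although TLR4 was already at 278, 265 and 366 on day 6. On day 12 their log2 fold changes against CD43- cells were 4.81, 5.86 and 3.79 (limma, highest adjusted p = 0.000705). Both sizes for LY96 rest on the pseudocount, since it was at or near 0 in day 9 CD43+ cells and 0 to 10 in day 12 CD43- cells. CD36 and CD33, proteins reported to bind S100A9, were higher in CD43+ cells on all 4 days, CD36 by 5.98 on day 6 and 8.96 on day 16 and CD33 by 4.98 and 6.04. AGER, the gene of RAGE, ranged from 120 to 340 in all samples and was called on no day, although on day 12 it was 0.64 higher in CD43+ cells on the log2 scale (limma, adjusted p = 0.00156). FGF1, which S100A13 binds, did not exceed 24 in any sample.

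Of 8 transcription factors of myeloid cells, 1 was called higher in the CD43+ fraction and 2 lower on day 6, 4 higher on days 9 and 12, and 6 higher on day 16, beside 12.5%, 21.5%, 26.2% and 25.8% of all genes called in either direction. SPI1, which codes for PU.1, was 1553, 1247 and 1332 in day 6 CD43+ cells against 10, 8 and 5 in CD43- cells, when S100A8 and S100A12 are still listed at 0. CEBPA was 152, 62 and 110 in CD43+ cells on day 6, 1180, 1226 and 1426 on day 9 and 3158, 2438 and 2630 on day 12. CEBPE went from 9, 5 and 8 on day 6 through 99, 169 and 120 to 590, 604 and 680 on day 12, a difference between the sorts of 8.76 on the log2 scale that day (limma, adjusted p = 5.42e-13). Day 12 CD43- cells held 0 to 2 of CEBPE, so that size rests on the pseudocount. CEBPD was 100, 96 and 137 in CD43+ and 442, 482 and 709 in CD43- cells on day 6 and was called lower, did not pass the test on day 12 (-0.32), and was 1.66 higher on day 16 (limma, adjusted p = 0.000122). By adjusted p-value alone, 4 factors were higher and 3 lower on day 6, 5 and 2 on day 9, and 4 and 1 on day 12. All 8 were higher on day 16. Of all genes, 50.3%, 65.7%, 68% and 67.4% passed on these days. KLF4 had means of 563, 1283 and 4180 in CD43+ cells on days 6, 9 and 12, below the 1608, 3557 and 8153 of CD43- cells. IRF8 is listed at 0 in day 6 CD43+ cells, against 6 to 34 in CD43- cells, and had a mean of 1293 against 32.3 on day 9.

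The genes whose values ran closest to those of single members over all 34 samples were named by Pearson's r of log2(value + 1), which is given without a test, since the samples share sorts and days. For S100A8 they were RETN (0.99), FCN1 (0.99), CLEC5A (0.98), LY86 (0.98) and MNDA (0.98), and for S100A9 they were SIGLEC14 (0.98), S100A8 (0.97), SH3BP2 (0.97) and FCN1 (0.97). For S100A10 the values were lower, with YIPF3 (0.91), CAB39L (0.89), CREB3L1 (0.88), VEGFA (0.88) and IP6K3 (0.88), as for S100A11 with GALNS (0.91), ST3GAL6 (0.90), RXRA (0.89), RHOXF1P1 (0.88) and CD300E (0.87). Among the members, r was 0.94 between S100A8 and S100A12, 0.95 between S100A9 and S100P, 0.75 between S100A13 and S100A16, and -0.72 between S100A8 and S100A16. S100A10 and S100A11, which lie side by side, had an r of 0.52, and neighbouring S100A4 and S100A6 had 0.76.

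The other genes of the chromosome 1 interval were counted as well. Of 12 genes that lie between S100A10 and the last S100 gene of the interval, 9 were tested, and the counts higher and lower in CD43+ cells were 2 and 1 on day 6, 2 and 1 on day 9, 1 and 1 on day 12, and 2 and 1 on day 16. Of all genes, 12.5%, 21.5%, 26.2% and 25.8% were called in either direction on these days. S100A1 was the one higher on day 12 (log2 fold change 4.43) and S100A14 the one lower (-4.84), and both are themselves S100 genes. HRNR, FLG and SPRR3, genes of the cornified epidermis, were too low to be tested.

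Interaction terms tested whether the gap between the sorts differed from one day to the next. It was called for 4 of 10 members from day 6 to day 9 (S100A8, S100A9, S100P and S100A16, against 7.39% of all genes), for 3 from day 9 to day 12 (S100A8, S100A11 and S100A12, against 9%) and for 1 from day 12 to day 16 (S100A12, against 5.03%). By adjusted p-value alone it passed for 5, 5 and 1 of the 10 members, against 18.2%, 27.4% and 17% of all genes. Several of these calls rested on single libraries or settings. From day 6 to day 9, S100A9 (3.33, adjusted p = 0.0233) was not called without replicate 3 of day 6 CD43-, replicate 2 or 3 of day 6 CD43+, replicate 1 or 2 of day 9 CD43- or replicate 3 of day 9 CD43+ cells (limma, adjusted p from 0.0526 to 0.0733), nor with a pseudocount of 0.1 (2.25). S100P (2.50) was 1.85 without replicate 2 of day 9 CD43- cells and 1.75 with a pseudocount of 10, and in a fit of only the populations compared its adjusted p was 0.0597, or 0.101 with a replicate block, and S100A16 (-2.31) was -1.97 without replicate 3 of day 6 CD43- cells. From day 9 to day 12, S100A8 (3.81, limma, adjusted p = 0.0351) was not called without any one of the day 9 CD43- or day 12 CD43+ samples. Its call was also lost without replicate 1 or 2 of day 9 CD43+ cells or replicate 1 of day 12 CD43- cells (1.82 for the last). Nor was S100A8 called with a pseudocount of 0.1 (1.64) or in a fit of only the populations compared, with or without a replicate block. S100A11 and S100A12 kept their calls from day 9 to day 12 without any one sample. From day 12 to day 16, S100A12 was not called with a pseudocount of 10 (limma, adjusted p = 0.179). Its call was also lost in a fit of only the populations compared (limma, adjusted p = 0.123, or 0.0849 with a replicate block).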

How the data were processed

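Sequencing was done at 2 companies. For alignment the authors used bowtie2 with RSEM and an Ensembl annotation, and their processing notes also list bcl2fastq and STAR 2.7. EDASeq then removed the dependence on GC, first inside each sample and then across them. What was deposited is the resulting tag count, rounded, which is handled here as a score on a normalized scale and not as a raw count or CPM. A GC percent per gene is deposited too and served to bin genes. Depth is unknown, so no counting precision was computed. Which company sequenced which sample is not in the labels, so its part was not tested.

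A single limma 3.58.1 model (R 4.3.3, lmFit and eBayes with trend) was fitted to log2(value + 1) of 33 samples, without the undifferentiated one. Genes reaching 10 in 3 or more samples entered, 19788 in all, and 467 did not; there were 17 comparisons. Fold changes on the log2(value + 1) scale understate those of low genes. The procedure was tested on simulated data. Named were all 10 members, up to 3 called genes a direction from each list, direct partners of members, and the 5 genes of highest Pearson's r for 4 members, of which 1 for S100A9 is not reported here. The markers shown by sample, the epidermal neighbours, CEBPD, KLF4 and IRF8 were picked after their values were seen. S100A5, S100A7, S100A7A, S100A7L2 and S100G were not analysed here. Members and lists were chosen with earlier results of these data known. Promoter windows came from RefSeq (GRCh38.p14), where all 10 members matched.

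Pairing by replicate number was checked by correlating how CD43+ and CD43- samples of equal number departed from their group means: r was 0.198, 0.109 and 0.199 on day 6, and not over 0.1 in every pair on later days, so only day 6 met the criterion for pairing. The fit reported has no block, and a replicate block changed no call of a member between the sorts on day 6. Alternatives were other pseudocounts, filters, scalings and sets of samples, a replicate block, and leaving out each replicate.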

Additional observations from a re-analysis of the deposited data

Results flagged for a closer look

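The difference between CD43+ and CD43- cells changed from one sorting day to the next in 11 cases with a limma adjusted p-value below 0.05 for the interaction term, where 18.2%, 27.4% and 17% of all genes passed for the 3 steps, given here as changes on the log2(value + 1) scale. From day 6 to day 9 it changed by 6.15 for S100A8, whose values are listed at 0 on day 6 so that the size rests on the pseudocount, by 3.33 for S100A9, by 2.50 for S100P, by 1.21 for S100A4 and by -2.31 for S100A16. From day 9 to day 12 it changed by 9.16 for S100A12, by 3.81 for S100A8, by 2.58 for S100A11, by 0.58 for S100A6 and by -1.85 for S100A16. The sizes for S100A12 and S100A8 rest on the pseudocount, since both are listed at 0 in day 9 CD43- cells. For S100A8 the change was 1.64 with a pseudocount of 0.1 (limma, adjusted p = 0.587). It was 1.82 without replicate 1 of day 12 CD43- cells, and 7.80 with only that replicate of these cells left. From day 12 to day 16 it changed by -3.11 for S100A12, whose CD43- values went from 0, 0 and 6 to 14, 24 and 28. This last change did not pass with a larger pseudocount (limma, adjusted p = 0.179). Nor did it pass in a fit of only the populations compared (limma, adjusted p = 0.123, or 0.0849 with a replicate block). Over all alternatives, the highest adjusted p (limma) was 0.265 for S100A9 and 0.101 for S100P from day 6 to day 9. It was 0.117 for S100A6 from day 9 to day 12. Each replicate was left out in turn, and no other search for outlying samples is given here.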

How the results depend on the processing

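Alternatives were run for 102 of the 170 values of a member in a comparison, all those between the sorts and, elsewhere, those with an adjusted p-value below 0.05. None of these changed direction. Of their recomputed values, 1663 stayed on the same side of the call, which includes values never called, 53 lost a call and 6 gained one. Counts of members called are over all 10 members. With a pseudocount of 10, the number of members called was 1 in place of 3 between the sorts on day 6, 1 in place of 3 in CD43- cells from day 9 to day 12, 0 in place of 2 from day 12 to day 16, 2 in place of 4 in day 6 CD43+ cells against day 4, and, for the change of the CD43 difference, 5 in place of 3 from day 9 to 12 and 0 in place of 1 from day 12 to 16. It also ended the calls of S100P in CD43+ cells from day 6 to 9 (1.71) and of S100A6 from day 2 to day 4 (1.97). In a fit of only the populations compared it was 1 in CD43- cells from day 9 to 12, 1 from day 12 to 16, and 0 for the last change. With a replicate block in that fit it was 0, 1 and 0. The block over all populations changed no call among the 102 values. With median-of-ratios scaling, S100A10 (-2.21) and S100A11 (-2.05) passed the fold threshold between the sorts on day 9. Leaving out each replicate in turn gave 1 to 2 members in CD43- cells from day 12 to 16, 2 to 4 for the change from day 6 to 9, 2 to 3 for that from day 9 to 12, 1 to 2 for that from day 12 to 16, 3 to 4 for day 6 CD43+ cells against day 4, and 3 to 3, 5 to 6, 6 to 6 and 6 to 6 between the sorts on the 4 days. Without replicates 2 and 3 of day 12 CD43- cells, an alternative chosen after seeing the data, the change from day 12 to 16 was called for 3 members. Over all genes, a pseudocount of 10 lowered the number called between the sorts on day 6 from 2481 to 1458 and on day 9 from 4252 to 2731. A limit of 100 lowered that of CD43+ cells from day 9 to 12 from 2968 to 1806. The cause was not tested, other than that a larger pseudocount shrinks differences of low genes by construction. Depth, and with it the counting error of low values such as those of S100A9 and S100P on day 6, is unknown.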

Other observations

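Of the 11 other S100 genes on the list, 6 were in the table and tested, and on days 9, 12 and 16 each 3 were called higher in CD43+ cells and 1 lower, where 21.5%, 26.2% and 25.8% of all genes were called in either direction. S100B, best known from glia, was 424, 462 and 421 in day 9 CD43+ cells, 2822, 2369 and 2056 on day 12 and 1181, 1330 and 1396 on day 16, against 2, 4 and 2, then 1, 174 and 231, then 7, 18 and 11 in CD43- cells. Its log2 fold change between the sorts was -0.33 on day 6 and 6.94, 5.79 and 6.73 on days 9, 12 and 16 (limma, highest adjusted p for these 3 days 8.44e-06). In day 12 CD43- cells it was high in replicates 2 and 3, as the blood cell markers were. S100Z reached 188, 153 and 152 in day 12 CD43+ cells against 0, 1 and 0 in CD43- cells.

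S100A1 was 205, 226 and 198 in CD43+ cells of day 9, 244 in all 3 samples of day 12 and 548, 739 and 396 on day 16, and it did not exceed 40 in CD43- cells of these days. It overlaps S100A13 on the other strand, which ran lower in CD43+ cells on the same days. S100A14, an epithelial member, was lower in CD43+ cells on all 4 days, with log2 fold changes of -5.23, -4.43, -4.84 and -2.75 (limma, highest adjusted p = 0.000896), and so were the markers of epithelial cells, of which 5 of 5 were called lower on days 6, 12 and 16 and 4 on day 9, while 12.5%, 21.5%, 26.2% and 25.8% of all genes were called on the 4 days in turn. Their part in the S100A14 values was not tested. S100A2 and S100A3 stayed below 30 in CD43+ cells from day 9 on.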
